A study of Mus musculus with 40 samples.

Results

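The age difference in control muscle was examined in 10 mRNA libraries of the extensor digitorum longus (EDL), a fast hindlimb muscle of the mouse: 5 from 9-month-old and 5 from 3-month-old control mice, out of 40 libraries in the series. The members are the vehicle-treated control libraries of both ages and were chosen by their labels, with no use of expression. The study compared controls (CON) with mice that lack Tsc1 in skeletal muscle fibers (TSCmKO), in which mTORC1, the kinase complex that Tsc1 restrains, stays active. It did so at 3 and 9 months of age, each after vehicle or the mTORC1 inhibitor rapamycin (RM). Each of the 8 groups held 5 mice with 1 library each.

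The groups used here share the floxed allele and the site of dissection. 3mCON and 9mCON carried Tsc1fl/fl (strain label Tsc1tm1Djk/J) with no deletion named in the labels, and received vehicle by intraperitoneal injection over 3 days before dissection. 3mCON+RM and 9mCON+RM had the same genotype and ages and received rapamycin instead. 3mTSCmKO and 9mTSCmKO lacked Tsc1 in skeletal muscle fibers and received vehicle. These floxed mice are controls for a knockout, not a wild-type aging cohort. The labels give no sex. The mean length of the sequenced fragments (insert size) is given for each library, and it differed between ages, so that age and library preparation cannot be told apart in any of these comparisons.

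Skeletal muscle fibers make up most of the RNA of the EDL. They are multinucleated cells whose speed is set largely by the myosin heavy chain they express: Myh4 (type 2B) and Myh1 (2X) in the fastest fibers, Myh2 (2A) and Myh7 (type 1) in slower, more oxidative ones. Between them lie fibroblasts that lay down collagen, tendon cells near the ends, capillaries, nerve and resident stem cells. Postnatal growth of a mouse is largely over by 3 months, and matrix production is known to decline as growth ends. In whole muscle, fewer cells of a type and less RNA per cell cannot be told apart.

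All 10 libraries had the profile of fast muscle. The summed level of 12 fast fiber markers (Acta1, Ckm, Pvalb, Myh4 and others) was 207070, 195810, 160270, 206900 and 192260 CPM (counts scaled to library size, here with TMM, a factor that corrects for library composition) in 3mCON and 201260, 221900, 209540, 201030 and 212110 CPM in 9mCON. Of these 12 genes, 6 were higher and none lower at an unadjusted p below 0.05 in edgeR, where 9.61% of all genes were higher, and none passed after adjustment or by DESeq2 (list median 0.17). Without 9mCON replicate 5, Pvalb, Tnnc2 and Tnnt3 passed as higher (0.65, 0.54 and 0.51). Total estimated counts were 10988960 to 33945646 per library in 3mCON and 12234422 to 19535160 in 9mCON. Y-linked transcripts were present at 287 to 407 CPM in every library, and Xist had at most 8 counts, so no difference of sex lies between these 2 groups. Tsc1 itself, floxed in both groups, was at 112, 129, 134, 123 and 84.1 CPM in 3mCON and 51.3, 62, 92.3, 89.7 and 122 CPM in 9mCON (log2 fold change -0.48 ± 0.17, adjusted p = 0.127), and the ages overlapped. Without 9mCON replicate 5, which had the highest 9-month value, Tsc1 passed as lower (-0.66, edgeR adjusted p = 0.0157). In that fit 6.96% of all genes passed, 3.82% higher and 3.14% lower, against 1.02% with all libraries. Tsc1 did not pass in the other 9 fits without 1 library (adjusted p = 0.0743 to 0.358).

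Of the 10 libraries, 5 stood apart in ways that touch the results. 9mCON replicate 2 held the highest level of 11 of 12 immediate early genes and of 27 of 28 cytosolic ribosomal protein genes. 9mCON replicate 5 had tendon and collagen transcripts near the level of 3mCON, and 9mCON replicate 1 had 7292 CPM of red cell transcripts against 327 to 1542 CPM in the other 9 libraries. 9mCON replicate 1 also held the highest level of 16 of 20 MHC and interferon response and 7 of 11 Schwann cell and nerve genes. It held the lowest level of 14 of 22 fatty acid uptake and oxidation and 8 of 14 atrophy ubiquitin ligase and FoxO genes. 3mCON replicate 3 held the highest level of 10 of 12 adipocyte and 9 of 15 slow and embryonic fiber genes (and the lowest of 3 of these 15), and 3mCON replicate 5 had the lowest tendon sum of its group. Root mean square deviations from the group mean on the log2 scale were 0.176 to 0.255 in 3mCON and 0.232 to 0.392 in 9mCON.

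Few genes passed the test between the ages. Of 13543 genes tested with edgeR's quasi-likelihood test, 92 were higher and 46 were lower in 9mCON than in 3mCON at a Benjamini-Hochberg adjusted p below 0.05, or 1.02% of all genes in both directions (0.679% higher, 0.34% lower). The changes were mostly modest: 25 of the higher and 17 of the lower genes differed at least 2-fold. The values of the groups did not overlap for 64 of the 92 higher and 26 of the 46 lower genes, whereas 3.26% of all genes did not overlap (2.01% higher, 1.25% lower). With 9mCON replicate 2 left out, 30 genes passed. With 9mCON replicate 5 left out, 942 did, among them all 138.

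A core of 22 genes kept the call in each of the 10 fits that left out 1 control library, 18 of them higher and 4 lower at 9 months. This core was picked after the values were seen. The higher ones were Dkk3, 1810024B03Rik, Actr3b, Tph1, Tmem8, Fam174b, Tmem37, Katnal2, Vcpkmt, Slc2a3 (the glucose transporter GLUT3), Metrn, Relt, Ppp1r14b, Maob, Abhd6, Plekhb1, Jsrp1 and Hdgf, and the lower ones were Pcdh17, Galnt7, Atrnl1 and Zfp609. With insert size as a term in the model, 14 of the 22 still passed, Dkk3, Actr3b, Tmem8, Tmem37, Katnal2 and Pcdh17 among them. Of all 39 called genes that the naming rule takes, 10 did. With only the 2 groups in the fit, 19 of all 138 called genes kept the call. Tph1, Slc2a3, Metrn, Relt, Plekhb1, Abhd6, Vcpkmt and Jsrp1 were among the core genes that lost it there (edgeR adjusted p = 0.0552 to 0.145).

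Dkk3 and Ostn were among the genes that rose. Dkk3, a secreted glycoprotein of the Dickkopf family (ENSMUSG00000030772, GRCm38 chr7:112116017-112159057, minus strand) was at 114, 127, 53.2, 115 and 111 CPM in 3mCON replicates 1 to 5 and at 358, 332, 406, 379 and 349.7 CPM in 9mCON (log2 fold change 1.81 ± 0.27, adjusted p = 0.00022). Every 9-month library lay at or above 332 CPM and every 3-month library at or below 127 CPM, and 3mCON replicate 3 was the lowest. Ostn was at 8.51, 8.28, 21.3, 10.1 and 11.2 CPM in 3mCON replicates 1 to 5 and at 36, 48.8, 29.6, 30.9 and 37 CPM in 9mCON (log2 fold change 1.61 ± 0.38, adjusted p = 0.0307). Ostn encodes osteocrin, or musclin, a peptide that muscle releases and that binds the natriuretic peptide clearance receptor. The groups did not overlap, and 3mCON replicate 3 was here the highest of its group. Without 9mCON replicate 2 the call was lost (1.48, adjusted p = 0.0988 by edgeR), and 5 of the 10 fits without 1 library kept it.

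Pla2g7, a secreted enzyme that breaks down platelet-activating factor, was at 54.8 to 96.1 CPM in 3mCON and 124 to 219 CPM in 9mCON (log2 fold change 1.08 ± 0.22, adjusted p = 0.0112). C1qtnf4, a secreted C1q and TNF related protein, was at 2.74 to 3.72 and 4.49 to 9.96 CPM (log2 fold change 1.08 ± 0.22, adjusted p = 0.0112). Neither overlapped between ages, and of the 10 fits without 1 library only that without 9mCON replicate 2 lost either call (edgeR adjusted p = 0.0722 and 0.077). C1qtnf4 also missed the threshold with insert size as a term (adjusted p = 0.0629) and with only the 2 groups in the fit (adjusted p = 0.0552). Of the 17 Wnt modulators tested, Dkk3 alone passed with all libraries in the fit, and the list had a median log2 fold change of -0.17 against 0.01 over all genes. Wif1, a secreted Wnt inhibitor chosen after its values were seen, did not pass: it was at 12.2, 7.55, 7.15, 2.95 and 0.422 CPM in 3mCON and 0.709, 0.377, 0.325, 0.437 and 3.72 CPM in 9mCON (log2 fold change -2.35 ± 0.62, adjusted p = 0.0503). Its fold change and call turned on single libraries: without 9mCON replicate 5 it passed at -3.66 (edgeR adjusted p = 0.00334), as did Axin2 (-0.48, adjusted p = 0.0247), and Wif1 also passed without 3mCON replicate 4 or 5 (adjusted p = 0.047 and 0.0167).

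Tph1 and Actr3b were also higher at 9 months. Tph1 was at 5.21, 5.82, 1.11, 5.39 and 3.38 CPM in 3mCON replicates 1 to 5 and at 11, 14.2, 17.1, 8.73 and 11.2 CPM in 9mCON (log2 fold change 1.58 ± 0.31, adjusted p = 0.00713). Tph1 is tryptophan hydroxylase 1, the rate-limiting enzyme of serotonin synthesis outside the brain. All 9mCON libraries exceeded all 3mCON libraries, and 3mCON replicate 3 was the lowest. Tph1 missed the threshold with insert size as a term (1.23, edgeR adjusted p = 0.155) and with only the 2 groups in the fit (adjusted p = 0.077). Actr3b was at 3.25, 2.55, 6.28, 2.32 and 3.29 CPM in 3mCON replicates 1 to 5 and at 6.55, 14.9, 7.07, 15.1 and 13.1 CPM in 9mCON (log2 fold change 1.67 ± 0.33, adjusted p = 0.00886). It was the only one of 20 cytoskeleton and intermediate filament genes to pass (list median 0.05). Its product is a close relative of Arp3, a subunit of the complex that nucleates branched actin. The nearest values of the groups were 6.28 and 6.55 CPM, and the 9mCON libraries themselves fell into 3 high and 2 low ones.

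Katnal2 was at 5.6, 5.28, 5.12, 7.8 and 5.83 CPM in 3mCON replicates 1 to 5 and at 12.1, 12.8, 14.4, 11.5 and 11.3 CPM in 9mCON (log2 fold change 1.05 ± 0.21, adjusted p = 0.0081). Katnal2 is a katanin-like protein of the family that severs microtubules. The 9-month values were tight, and 3mCON replicate 4 was the highest of its group. Fam174b was at 2.35, 2.27, 2.52, 1.55 and 2.79 CPM in 3mCON replicates 1 to 5 and at 9.92, 4.53, 7.88, 3.49 and 6.25 CPM in 9mCON (log2 fold change 1.496 ± 0.28, adjusted p = 0.00694). Fam174b encodes a small membrane protein. Its 9-month values were scattered but did not reach those at 3 months, and with insert size as a term its log2 fold change was 0.84 (edgeR adjusted p = 0.232). Tmem8 was at 1.12, 0.91, 1.74, 1.4 and 1.1 CPM in 3mCON replicates 1 to 5 and at 4.25, 4.68, 3.49, 3.55 and 3.25 CPM in 9mCON (log2 fold change 1.57 ± 0.23, adjusted p = 0.00022). Tmem8 is low in this muscle, with at most 72 counts in a library. Tmem37 was at 12.9, 13.3, 8.1, 11.1 and 9.88 CPM in 3mCON replicates 1 to 5 and at 19.9, 28.1, 22.2, 31.5 and 22.2 CPM in 9mCON (log2 fold change 1.17 ± 0.21, adjusted p = 0.00436). Tmem37 encodes a protein related to calcium channel gamma subunits.

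The other rises that met the naming rule were smaller or lower in level. Srcin1 (an adaptor that restrains Src), Elmo3, Coa4 (an assembly factor of cytochrome c oxidase), 1700001O22Rik and Gm16534 had log2 fold changes of 0.99, 1.11, 0.91, 1.75 and 1.06 and adjusted p-values of 0.0403, 0.0222, 0.0469, 0.0256 and 0.0379. Of the 10 fits without 1 library, 4, 5, 2, 6 and 2 kept the call. Of the 31-base words in Gm16534, a processed transcript, 66.3% also occurred in transcripts of Fam78a, so that its reads cannot be placed with certainty. Itgam presents the same problem: the entry that passed (ENSMUSG00000108596, log2 fold change 1.38 ± 0.29, adjusted p = 0.0112) shared 77.9% of its 31-base words with the established Itgam gene (ENSMUSG00000030786), which encodes the integrin CD11b of myeloid cells. The call of the entry that passed was lost without 9mCON replicate 2 (edgeR adjusted p = 0.0637), and with insert size as a term its log2 fold change was 0.53 (adjusted p = 0.378). The established Itgam entry did not pass (log2 fold change 0.37 ± 0.38, adjusted p = 0.65).

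The rest of the core, which was picked by the fits without 1 library alone, was found in genes of many functions. Plekhb1 was at 109, 107, 116, 120.5 and 113 CPM in 3mCON replicates 1 to 5 and at 207, 214, 165, 154 and 137 CPM in 9mCON (log2 fold change 0.63 ± 0.11, adjusted p = 0.0018). Plekhb1 is a membrane-associated protein with a pleckstrin homology domain. Maob was at 16.3, 14.4, 13.6, 12.3 and 13.1 CPM in 3mCON replicates 1 to 5 and at 22, 21.2, 23.4, 25.8 and 22.4 CPM in 9mCON (log2 fold change 0.72 ± 0.14, adjusted p = 0.00713). Maob is the mitochondrial monoamine oxidase B, and its values were tight at both ages. Hdgf was at 296, 294, 295, 311 and 302 CPM in 3mCON replicates 1 to 5 and at 446, 405, 414, 391 and 365 CPM in 9mCON (log2 fold change 0.43 ± 0.08, adjusted p = 0.00713). Hdgf encodes a growth factor that binds heparin, and its rise was small but without overlap.

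Slc2a3 was at 8.23, 5.55, 9.54, 7.77 and 5.58 CPM in 3mCON replicates 1 to 5 and at 10.4, 11, 14.1, 17.1 and 15.6 CPM in 9mCON (log2 fold change 0.88 ± 0.18, adjusted p = 0.0112). Slc2a3 is the glucose transporter GLUT3. Metrn was at 14.7, 15.8, 19.7, 21.2 and 21.4 CPM in 3mCON replicates 1 to 5 and at 31.8, 38.8, 38, 23 and 27.5 CPM in 9mCON (log2 fold change 0.77 ± 0.15, adjusted p = 0.00713). Metrn is meteorin, a secreted factor first known from glia. In both genes the ages did not overlap. With insert size as a term, Slc2a3 and Metrn missed the threshold (edgeR adjusted p = 0.07025 and 0.1533). Relt (a TNF receptor family member), Ppp1r14b (an inhibitor of protein phosphatase 1), Vcpkmt (a lysine methyltransferase), Abhd6 (a lipase) and 1810024B03Rik had log2 fold changes of 0.74, 0.73, 0.90, 0.66 and 1.75. The ages met at a single value in Abhd6 and did not overlap in the other 4. With insert size as a term, Abhd6 and Ppp1r14b missed the threshold (edgeR adjusted p = 0.1385 and 0.05035). Ppp1r14b shares 24.3% of its 31-base words with other genes.

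Single members of lists for muscle function rose as well. Jsrp1 was at 188, 175, 169.6, 178 and 186 CPM in 3mCON replicates 1 to 5 and at 291, 293, 269.6, 247 and 226 CPM in 9mCON (log2 fold change 0.57 ± 0.11, adjusted p = 0.00886). Jsrp1 (JP-45) is a protein of the junctional sarcoplasmic reticulum that contacts the voltage sensor of excitation-contraction coupling. The groups did not overlap, and the spread within each was small. Jsrp1 missed the threshold with insert size as a term and with only the 2 groups in the fit (edgeR adjusted p = 0.0693 and 0.0602). It was the only one of 21 calcium handling genes to pass with all libraries in the fit (without 9mCON replicate 5, Pvalb also passed as higher, 0.65, and Ryr1 as lower, -0.69), and the list median was 0.06. Phlda3 was at 98.4, 112, 122, 112 and 117 CPM in 3mCON replicates 1 to 5 and at 108, 186, 185, 178 and 188 CPM in 9mCON (log2 fold change 0.59 ± 0.13, adjusted p = 0.0222). Phlda3, a p53 target that restrains Akt, was higher in 4 of the 5 9mCON libraries than in any 3mCON library, and 9mCON replicate 1 lay within the 3-month range. Its call was kept in 6 of the 10 fits without 1 library. None of the other 15 genes of the p53, senescence and Cdk inhibitor list passed.

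Cox5b was at 289, 307, 306, 358 and 358 CPM in 3mCON replicates 1 to 5 and at 600.5, 661, 505, 444 and 372 CPM in 9mCON (log2 fold change 0.67 ± 0.15, adjusted p = 0.0218). Cox5b encodes a nuclear subunit of cytochrome c oxidase. Rps19 was at 82.4, 86.8, 102, 107 and 84.7 CPM in 3mCON replicates 1 to 5 and at 172, 176, 156, 118 and 103 CPM in 9mCON (log2 fold change 0.65 ± 0.17, adjusted p = 0.0496). Rps19 is a protein of the small ribosomal subunit. Both calls were lost without 9mCON replicate 2 (edgeR adjusted p = 0.0995 and 0.16). In both, 9mCON replicate 5 was the lowest of its group, and in Rps19 it lay within the 3-month range. Of the lists they belong to, 1 of 37 genes of respiratory complexes II to V, none of 36 of complex I and 1 of 28 cytosolic ribosomal protein genes passed, yet the members leaned one way: 28 of 37, 31 of 36 and 27 of 28 had a log2 fold change above 0. The list medians were 0.13, 0.25 and 0.25. These are short transcripts, and all genes within the middle range of length of each list had medians of 0.19, 0.20 and 0.22. Other short transcripts thus leaned to a like degree. Without 9mCON replicate 5, 4, 3 and 8 members passed, all higher, where 3.82% of all genes were higher. In 9mCON replicate 2, 34, 33 and 27 of the members had their highest level of the 10 libraries, and without it none passed and the medians were -0.03, 0.04 and 0.07. In complex I, 10 members had an unadjusted p below 0.05 in edgeR, all higher, where 9.61% of all genes and 21.7% of genes of like length were, and DESeq2 called 1. The 13 genes of the mitochondrial genome were not analysed here.

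**Figure D1:**
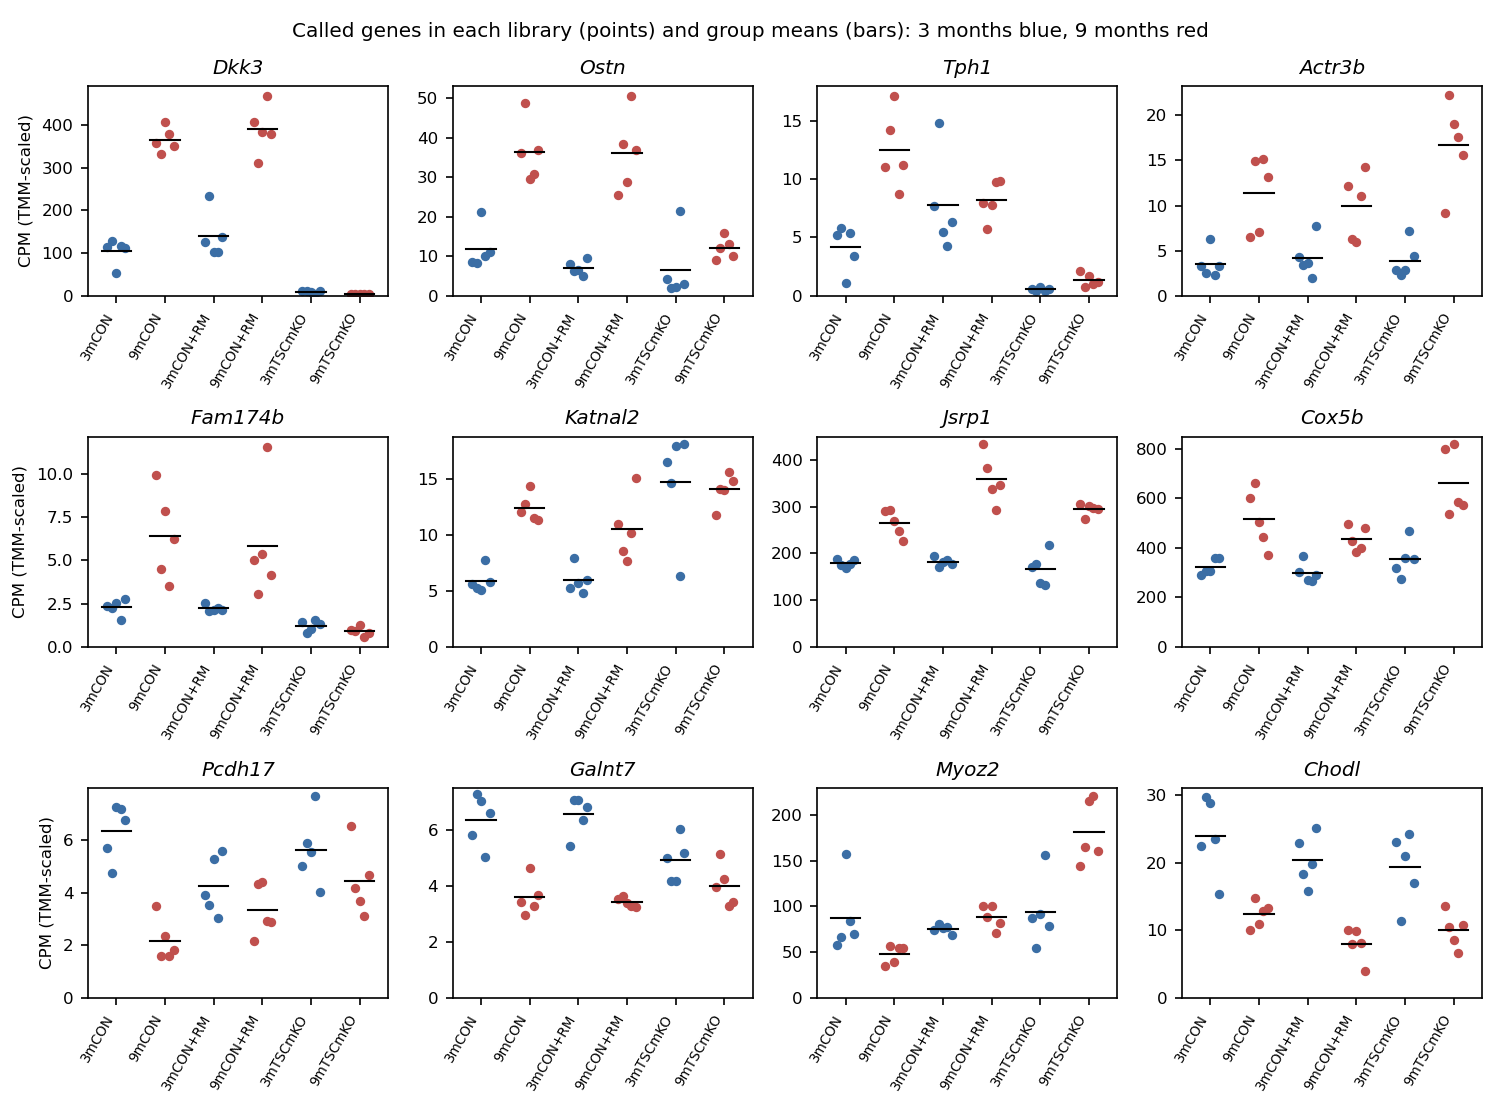
TMM-scaled CPM (vertical axes from 0) of 12 called genes in each library of 6 groups (horizontal axis), with 3-month libraries in blue, 9-month libraries in red and black bars for the means of 5 libraries. Dkk3 rose in CON and CON+RM and was at most 12.2 CPM in both TSCmKO groups, whereas Myoz2 was lower at 9 months in CON and higher in TSCmKO.

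Pcdh17, Fat4 and Dchs1 were among the genes that fell. Pcdh17 was at 5.71, 4.73, 7.27, 7.2 and 6.76 CPM in 3mCON replicates 1 to 5 and at 3.48, 1.58, 2.35, 1.58 and 1.81 CPM in 9mCON (log2 fold change -1.56 ± 0.23, adjusted p = 0.00022). Pcdh17 (ENSMUSG00000035566, GRCm38 chr14:84443563-84539002, plus strand), a protocadherin, fell in each 9mCON library below the lowest 3mCON value. It was the most stable of the falls, with an adjusted p of at most 0.00248 in the 10 fits without 1 library. Fat4 was at 21.6, 19.6, 22.7, 20.7 and 17.8 CPM in 3mCON replicates 1 to 5 and at 15.8, 7.62, 9.83, 8.57 and 14.5 CPM in 9mCON (log2 fold change -0.86 ± 0.19, adjusted p = 0.0175). Dchs1 was at 4.09, 3, 3.8, 3.04 and 3.21 CPM in 3mCON replicates 1 to 5 and at 1.71, 1.36, 1.46, 0.873 and 2.63 CPM in 9mCON (log2 fold change -1.08 ± 0.25, adjusted p = 0.0229). Fat4 and Dchs1 are giant cadherins that bind each other across cells as receptor and ligand and align cells in a plane. Both fell, and neither overlapped between the ages. Fat4 kept the call in 6 and Dchs1 in 4 of the 10 fits without 1 library.

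Galnt7 was at 5.82, 7.28, 7.02, 5.03 and 6.59 CPM in 3mCON replicates 1 to 5 and at 3.42, 2.94, 4.63, 3.27 and 3.67 CPM in 9mCON (log2 fold change -0.82 ± 0.16, adjusted p = 0.00713). Atrnl1 was at 23.2, 22.8, 30.4, 19.6 and 20.8 CPM in 3mCON replicates 1 to 5 and at 11, 10.7, 15, 11.9 and 17.8 CPM in 9mCON (log2 fold change -0.81 ± 0.16, adjusted p = 0.00713). Galnt7 adds GalNAc sugars to proteins in the Golgi, and Atrnl1 is a membrane protein related to attractin. Both kept the call without any 1 library. Prox1 was at 3.25, 3.27, 3.22, 2.74 and 2.11 CPM in 3mCON replicates 1 to 5 and at 1.3, 0.83, 1.46, 1.42 and 1.86 CPM in 9mCON (log2 fold change -1.07 ± 0.24, adjusted p = 0.0196). Prox1 is a homeobox factor of lymphatic vessels that slow fibers and muscle stem cells also use. Adamts20 was at 6.78, 8.55, 10.7, 7.38 and 10.9 CPM in 3mCON replicates 1 to 5 and at 4.84, 4, 5.85, 4.42 and 4.54 CPM in 9mCON (log2 fold change -0.90 ± 0.22, adjusted p = 0.0356). Adamts20 is a secreted metalloprotease of the matrix. Neither gene overlapped between ages, and both were at most 10.9 CPM. Both calls were lost without 9mCON replicate 2 (edgeR adjusted p = 0.0784 and 0.12), and 5 and 4 of the 10 fits without 1 library kept them.

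N4bp2, Zfp970, Tmem56, Klhl23 and Golgb1 (giantin, a Golgi tether) had log2 fold changes of -1.002, -0.77, -0.75, -0.65 and -0.63 and adjusted p-values of 0.016, 0.0303, 0.0256, 0.0284 and 0.0341. Of the 10 fits without 1 library, 7, 4, 6, 4 and 3 kept the call, and with insert size as a term Zfp970 was at -0.43 and Golgb1 at -0.28 on the log2 scale (edgeR adjusted p = 0.338 and 0.46). In Zfp970, 67.9% of the 31-base words also occurred in other genes. Gm8624, a transcript that shares 41.6% of its 31-base words with other genes, Rps23 above all, was at 9.97, 18.3, 15.4, 22.4 and 13.8 CPM in 3mCON and 1.18, 1.06, 0.812, 8.08 and 0.31 CPM in 9mCON. 9mCON replicate 4 stood apart from the other 4 there, and 3 of the 10 fits without 1 library kept the call. Zfp609 had 3 to 21 counts per library in 3mCON and 0 to 2 in 9mCON, with 3 counts per library taken as the floor of detection. It was at least 3.08-fold lower.

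The largest fitted fall belonged to Gm15564, an antisense transcript, which was outside the naming rule and was singled out after its values were seen. It was at 164, 0.546, 91.9, 73.9 and 0.169 CPM in 3mCON and at 0.059, 0, 0, 1.86 and 0 CPM in 9mCON. Of the 3-month libraries, 3 were high and the other two were as low as the 9-month ones, so that the ages overlapped. It was also high in some and low in other libraries of 3mCON+RM (144, 48.5, 44, 0.57 and 9.69 CPM) and 3mTSCmKO (0.527, 148, 42.4, 107 and 117 CPM), and at most 1.86 CPM in the 15 libraries of the matching 9-month groups.

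The mix of fast myosins showed no difference past the test. On TPM, a unit scaled by transcript length, Myh4 made up 80.2, 80.0, 77.7, 79.5 and 83% of the 4 adult myosin heavy chains in 3mCON and 86.6, 82.4, 84.9, 81.5 and 78.7% in 9mCON. Myh1 made up 18.7, 18.8, 20.05, 19.2 and 16.3% and 13.1, 17.2, 14.5, 17.7 and 19.9%. Both ranges overlapped. In Myh4, 30.4% of the 31-base words also occurred in other genes, Myh1 above all. A read that matched several transcripts was divided equally among them, so that the split between Myh4 and Myh1 is uncertain. The effect of this on the shares was not tested. Mean shares were 80.1 ± 1.89% and 82.8 ± 3.06% for Myh4 and 18.6 ± 1.4% and 16.5 ± 2.67% for Myh1 (SD, n = 5; two-sided exact permutation tests, p = 0.135 and 0.151).

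The slower myosins were scarce. Myh2 made up 0.938, 1.11, 1.88, 1.18 and 0.703% in 3mCON and 0.197, 0.434, 0.51, 0.749 and 1.3% in 9mCON (exact permutation p = 0.0873), and Myh7 0.111, 0.0912, 0.351, 0.155 and 0.0534% and 0.0393, 0.0527, 0.0553, 0.077 and 0.0957% (exact permutation p = 0.0714). Adjusted over the 4 genes, all p-values were 0.151, and the smallest raw p that 5 against 5 libraries allow is 0.00794. 9mCON replicate 5 had the highest Myh2 share of its group, and without it Myh4, Myh1 and Myh2 each passed with an adjusted exact permutation p of 0.0423. 3mCON replicate 3 had the highest Myh7 and Myh2 shares of all 10 libraries.

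Myoz2 was at 58.3, 67, 158, 84 and 69.6 CPM in 3mCON replicates 1 to 5 and at 34.3, 57.2, 39.1, 55 and 55 CPM in 9mCON (log2 fold change -0.86 ± 0.22, adjusted p = 0.0451). Myoz2 (calsarcin-1) tethers calcineurin at the Z-disc and marks slow fibers. It was the only one of 15 slow and embryonic fiber genes to pass with all libraries in the fit. The call was kept in 3 of the 10 fits without 1 library and was lost without 3mCON replicate 3 (-0.52, edgeR adjusted p = 0.212). Without 9mCON replicate 5, Myh2 (-1.34) and, in the other direction, Myl4 (0.87) also passed. The groups were separated by 57.2 against 58.3 CPM at the nearest values, and 3mCON replicate 3 was far above the rest. That library held the highest level of 9 and the lowest of 3 of the 15 genes, and its summed level of the list was the lowest at 3 months (2960 against 3216 to 4201 CPM). The list median was -0.69, with 13 of 15 members below 0. Chodl was at 22.4, 29.8, 28.8, 23.5 and 15.3 CPM in 3mCON replicates 1 to 5 and at 9.98, 14.7, 10.9, 12.8 and 13.3 CPM in 9mCON (log2 fold change -0.96 ± 0.21, adjusted p = 0.0196). Chodl is chondrolectin, a membrane lectin, and was the only one of 13 satellite cell and myogenesis genes to pass, a call that 6 of the 10 fits without 1 library kept. The stem cell factor Pax7, also named after its values were seen, was at 2.2 to 2.82 CPM in 3mCON and 1.79 to 2.79 CPM in 9mCON (log2 fold change -0.11 ± 0.26, adjusted p = 0.873).

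Tendon transcripts were lower in most of the older muscles, with 1 exception at each age. The summed level of 12 tendon genes was 877, 667, 674, 376 and 151 CPM in 3mCON and 174, 124, 122, 98.9 and 554 CPM in 9mCON. 3mCON replicate 5 was as low as the older muscles and 9mCON replicate 5 as high as the younger ones, so that the groups overlapped through these 2 libraries. Only Col11a1 and Mkx passed, both lower, while 11 of 12 members were below 0 and the list median was -1.23. Col11a1 was at 13.8, 9.37, 15.2, 6.55 and 3.8 CPM in 3mCON replicates 1 to 5 and at 3.01, 1.43, 2.27, 1.2 and 6.25 CPM in 9mCON (log2 fold change -1.76 ± 0.43, adjusted p = 0.0329). Mkx was at 3.98, 3.09, 3.47, 1.91 and 1.94 CPM in 3mCON replicates 1 to 5 and at 2.01, 0.679, 0.975, 1.53 and 1.39 CPM in 9mCON (log2 fold change -1.10 ± 0.27, adjusted p = 0.0328). Both calls were lost without 9mCON replicate 2 (edgeR adjusted p = 0.123 and 0.125). Col11a1 is a minor chain that seeds collagen fibrils, and Mkx (Mohawk) is a transcription factor of tendon cells.

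Fmod and Tnmd were chosen after their values were seen. Fmod, which binds and spaces collagen fibrils, was at 438, 331, 320.2, 167 and 51.4 CPM in 3mCON and 80.7, 41.3, 46.9, 33.4 and 277 CPM in 9mCON (log2 fold change -1.44 ± 0.58, adjusted p = 0.187). Tnmd, a membrane protein typical of tendon, was at 27, 21.9, 23.8, 11.1 and 5.41 and 5.32, 3.55, 3.49, 3.11 and 12.6 CPM (log2 fold change -1.65 ± 0.47, adjusted p = 0.0656). In both genes 3mCON replicate 5 was the lowest and 9mCON replicate 5 the highest of its group, and the ages overlapped. Without 9mCON replicate 5, 9 of the 12 tendon genes passed (list median -1.99), all lower, where 3.14% of all genes were lower, and without 3mCON replicate 5, 5 did, where 0.532% of all genes were lower. Without 9mCON replicate 2, none passed, where 0.222% of all genes did.

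Of 16 collagens none passed with all libraries in the fit. Col12a1 (-2.40, edgeR adjusted p = 0.0205) and Col8a1 (-0.85, adjusted p = 0.0474) did without 9mCON replicate 5. Their sum was 3170, 1718, 1982, 1500 and 1754 CPM in 3mCON and 1384, 835, 1188, 945 and 2023 CPM in 9mCON, 15 of 16 members were below 0 and the median log2 fold change was -0.45. Col1a1, the main chain of type I collagen, was at 684, 321, 405, 253 and 236 and 189, 87.5, 199, 116 and 318 CPM (log2 fold change -1.06 ± 0.45, adjusted p = 0.206). Col1a2 was at 1127, 536, 674, 447 and 404 and 404, 226, 293, 216 and 527 CPM (log2 fold change -0.94 ± 0.38, adjusted p = 0.19). Sparc, a matrix protein that binds collagen, came close to the threshold: it was at 777, 484, 572, 476 and 438 and 367, 280, 317, 311 and 397 CPM (log2 fold change -0.72 ± 0.20, adjusted p = 0.0608) and did not overlap. Fibroblast markers did not lean: their sum was 2395, 1840, 1683, 1334 and 1379 and 1746, 1450, 1334, 1226 and 2206 CPM, with a median of -0.08 and none of 15 past the test, adjusted or not, by edgeR or DESeq2. In edgeR 6 of the 16 collagens had an unadjusted p below 0.05, all lower, where 8% of all genes and 14.6% of genes of like length were, and DESeq2 called 1. DESeq2 called 2.77% of all genes. Of 20 genes of collagen making and matrix remodelling none passed, 8 had an unadjusted p below 0.05, all lower, where 8.39% of genes of like length were, DESeq2 called 1, and the median was -0.36. Of these 20, Lox (-1.28, edgeR adjusted p = 0.00953) and Sparc (-0.78, adjusted p = 0.0287) passed without 9mCON replicate 5, 2 in all. Collagen transcripts are long, and all genes of like length had a median of -0.13. For tendon genes that value was 0.06.

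The same age step was measured in rapamycin-treated controls, which share no library with the vehicle groups. There 10 of 12 tendon, 15 of 16 collagen and 13 of 15 fibroblast genes were lower at 9 months, where 8.58% of all genes were, and the medians were -2.85, -1.76 and -1.38. The difference between the 2 age steps passed the interaction test for 1 of 12 tendon, 1 of 16 collagen, 2 of 20 collagen making and 7 of 15 fibroblast genes, against 0.938% of all genes. Macrophage and myeloid genes moved with the matrix genes: 11 of 16 were lower and 1 was higher under rapamycin, with a median of -1.97 against 0.12 under vehicle, and 8 passed the interaction test. Their sum was 228, 110.4, 175, 202 and 216 CPM in 3mCON+RM and 107, 83.3, 117, 103 and 69.7 CPM in 9mCON+RM, and their part in the matrix differences was not tested. Gsn and Dcn were the named genes of the matrix and fibroblast lists that passed the interaction test. Dcn (decorin) had log2 fold changes of -0.09 ± 0.27 under vehicle and -1.61 ± 0.28 under rapamycin (interaction adjusted p = 0.0466). Gsn (gelsolin) had -0.28 ± 0.32 and -2.18 ± 0.34 (interaction adjusted p = 0.0355), with 9mCON replicate 5 at 732 CPM against 298 to 337 CPM in the other 9mCON libraries. Both interactions were near the threshold: over the 20 fits without 1 library the adjusted p ran from 0.0146 to 0.128 for Dcn and from 0.0112 to 0.131 for Gsn, highest in each without 9mCON replicate 5 (1.43 and 1.55). For Col1a1, Col1a2, Col11a1 and Mkx the interaction did not pass (adjusted p = 0.308, 0.366, 0.683 and 0.534).

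**Figure D2:**
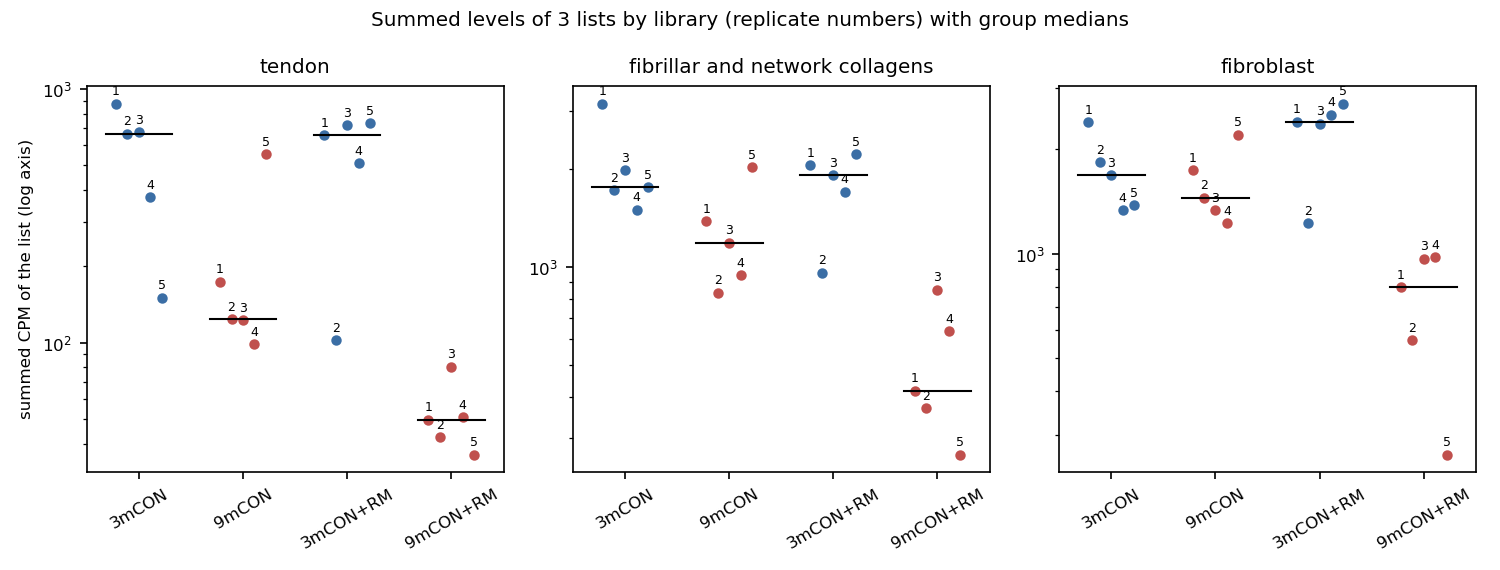
Summed TMM-scaled CPM (log axis) of the tendon, collagen and fibroblast lists in each control library, labelled by replicate number, with lines at group medians. The tendon sum was 98.9 to 174 CPM in 4 of the 5 9mCON libraries and 554 CPM in replicate 5, and 36.2 to 80.4 CPM in 9mCON+RM.

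Immediate early genes were high in a single 9-month mouse. These genes are switched on within minutes of a stimulus, contraction and tissue handling included. Fosb, an AP-1 subunit, was at 1.62, 1.27, 1.07, 0.536 and 0.422 CPM in 3mCON and 2.3, 34.3, 1.79, 1.97 and 0.465 CPM in 9mCON (log2 fold change 3.04 ± 0.71, adjusted p = 0.0264). Nr4a2, an orphan nuclear receptor, was at 2.91, 2.91, 2.81, 2.44 and 3.13 and 3.42, 49.6, 10.6, 4.53 and 2.53 CPM (log2 fold change 2.31 ± 0.48, adjusted p = 0.0127). Of the 10 fits without 1 library, 4 kept the call of Fosb and 9 that of Nr4a2. Both calls were lost without 9mCON replicate 2. Without it the log2 fold changes were 0.73 (adjusted p = 0.594) and 0.87 (adjusted p = 0.227), the list median moved from 1.02 to 0.07, and none of the 12 genes passed in edgeR.

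Others of the list, chosen after their values were seen, behaved alike in that library. Fos reached 302 CPM against at most 21.3 CPM in the other 9 libraries, Egr1 210.5 against 52, Btg2 170.5 against 36.2 and Zfp36 82.2 against 24.7 CPM. In all, 11 of 12 genes were highest there, 8 of them by at least 2-fold, with Nr4a3 the exception. These other genes did not pass the test between the ages with all libraries in the fit. Fos (2.70, edgeR adjusted p = 0.024) and Btg2 (1.39, adjusted p = 0.0191) passed without 9mCON replicate 5. The sum of the list was 389.5, 436, 382, 304 and 302 CPM in 3mCON and 297, 1725, 315, 574 and 455 CPM in 9mCON, and 117 to 438 CPM in the 20 libraries of CON+RM and of vehicle-treated TSCmKO.

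The 2 immediate early genes that passed are shown by the 150 bases before their start sites (RefSeq, GRCm38.p6), with each half-site TGACG of the cAMP response element, on either strand, in capitals. The half-site lies in the 250 bases before the start of 17.8% of 32851 mouse promoters, and the full element TGACGTCA in 1.55%. Fosb has 1 half-site within the 150 bases shown and Nr4a2 has 3, and neither has the full element in its 250 bases. A match of letters is a description and no evidence of binding.
Fosb, chr7:19310046-19310195, minus strand: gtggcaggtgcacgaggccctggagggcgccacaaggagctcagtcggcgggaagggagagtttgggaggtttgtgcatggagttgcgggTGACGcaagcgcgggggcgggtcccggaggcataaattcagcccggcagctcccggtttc
Nr4a2, chr2:57124004-57124153, minus strand: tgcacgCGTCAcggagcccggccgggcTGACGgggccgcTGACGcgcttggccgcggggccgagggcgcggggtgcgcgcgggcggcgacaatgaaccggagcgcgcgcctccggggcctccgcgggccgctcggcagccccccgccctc

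**Figure D3:**
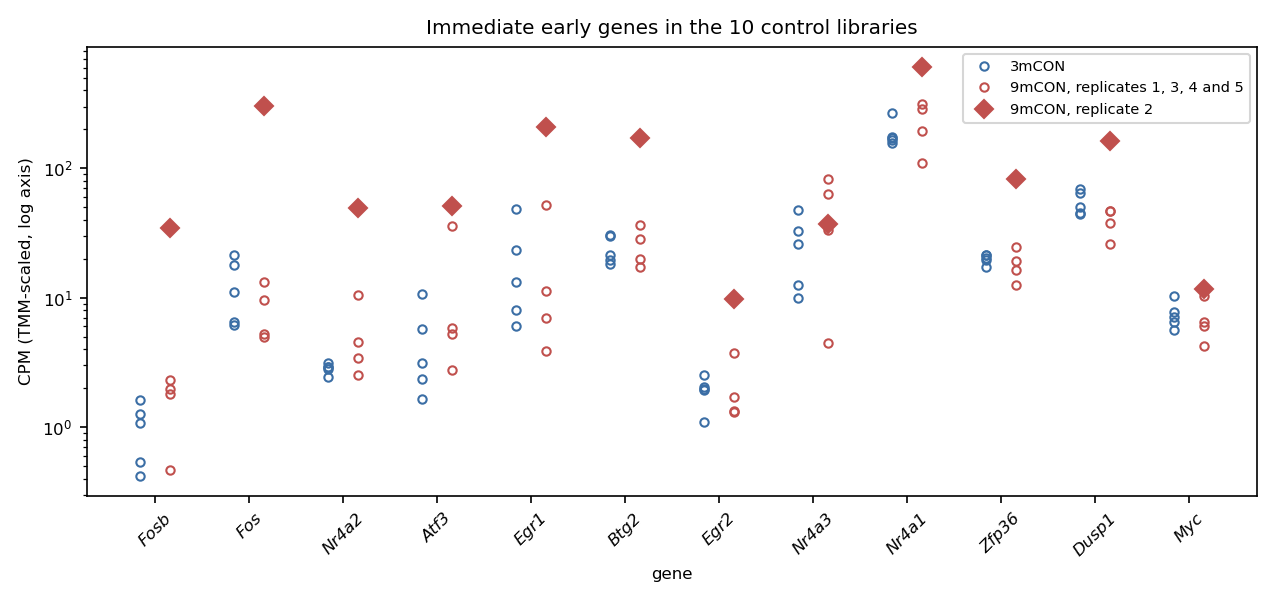
TMM-scaled CPM (log axis) of 12 immediate early genes in the 5 3mCON libraries (blue circles), in 9mCON replicates 1, 3, 4 and 5 (red circles) and in 9mCON replicate 2 (filled diamonds). Replicate 2 is the highest of all 10 libraries for 11 of the 12 genes, and among the other 9 libraries the ages overlap for all 12.

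Lists for the neuromuscular junction (17 genes), denervation (15), atrophy ubiquitin ligases and FoxO (14), the circadian clock (19), TSC and mTOR complexes (16), insulin and IGF signalling (16), myostatin, activin and BMP (20) and the imprinted growth network (17) held no gene past edgeR's test. Over the 130 genes of these 8 lists, 7 were higher and 13 lower at an unadjusted p below 0.05, where 9.61% of all genes were higher and 8% lower, and DESeq2 called none. Without 9mCON replicate 5, 1 was higher and 4 were lower, against 3.82% and 3.14% of all genes, namely Lamtor1 (0.47), Tsc1 (-0.66), Mtor (-0.64), Acvr2b (-0.73) and Igf2r (-0.54), and without any other 1 library none passed. Their median log2 fold changes were -0.12, 0.09, -0.08, 0.01, -0.01, -0.10, -0.02 and -0.05. Of their highest members, Prkar1a and Utrn at the junction were at 168 to 192 and 91.4 to 108 CPM in 3mCON and 128 to 177 and 38.8 to 98.3 CPM in 9mCON. Fbxo32 (atrogin-1), an E3 ligase of muscle wasting, was at 427 to 698 and 413 to 691 CPM. Nr1d1, a repressor of the clock, was at 142 to 270.3 and 221 to 267 CPM. Igfbp5 was at 786 to 1010 and 776 to 1335 CPM. All of these ranges overlapped.

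Metabolic and stress lists held no call with all libraries in the fit, and 5 higher and 3 lower ones without 9mCON replicate 5. They held 1 in each of the fits without 3mCON replicate 3, 3mCON replicate 5 or 9mCON replicate 3, where 0.517%, 1.19% and 0.547% of all genes passed. Glycolysis and glycogen (20 genes), fatty acid uptake and oxidation (22), lipid and sterol synthesis (19), heat shock and chaperones (19), ATF4 targets (18), NRF2 and metallothionein (17), polyamine metabolism (11), glucocorticoid targets (13) and proliferation (9) had medians of 0.00, 0.09, -0.08, 0.04, 0.10, 0.20, 0.25, 0.13 and 0.04. Over their 144 genes, 11 were higher and 6 lower at an unadjusted p below 0.05 in edgeR, no larger a share than the 9.61% and 8% of all genes, and DESeq2 called 1 in each direction. Aldoa and Pygm, highest of the glycolytic list, were at 9980 to 11030 and 5570 to 6835 CPM in 3mCON and 9774 to 14740 and 4619 to 7307 CPM in 9mCON. Pdk4, a brake on glucose oxidation, was at 1032 to 1408 and 759.8 to 2015 CPM. Scd1, a lipid desaturase, was at 72.1 to 148 CPM in 4 of the 3mCON libraries and 583 CPM in replicate 3, which also had the most Car3 (2619 CPM) and the highest level of 10 of 12 adipocyte genes.

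Of the markers of blood, vessel, nerve, fat and immune cells, the Itgam entry named above alone passed with all libraries in the fit, a call lost without 9mCON replicate 2 and with insert size as a term. Endothelium (12 genes) had a median of -0.24, smooth muscle and pericyte (10) -0.11, Schwann cell and nerve (11) -0.06, adipocyte (12) -0.84, macrophage and myeloid (16) 0.12, MHC and interferon response (20) 0.10 and erythroid (8) 1.64. 3mCON replicate 5 held the highest level of 9 of 12 endothelial genes, and 9mCON replicate 1 that of 16 of 20 MHC and interferon and 7 of 11 Schwann cell genes. 3mCON replicate 3 held that of 10 of 12 adipocyte genes, with a sum of 4790 CPM against 1548 to 2258 CPM in all other control libraries under vehicle. The erythroid value followed 9mCON replicate 1: Hba-a2, an alpha globin, was at 2081, 368, 285, 109 and 109 CPM in 9mCON and 410.1, 256, 113, 195 and 68.3 CPM in 3mCON, and it shares 92.6% of its 31-base words with other genes, Hba-a1 above all. The part of blood in that library in any result was not tested. Lymphocyte markers were near the limit, with sums of at most 5.85 CPM, and 3 of their 11 genes in the table passed the filter on low values. Macrophage genes apart, these lists held 76 tested genes, of which 9 were higher and 5 lower at an unadjusted p below 0.05 in edgeR, where 9.61% and 8% of all genes were, and DESeq2 called 1 in each direction. In the fit without 9mCON replicate 5, 1 was higher and 3 were lower, and without 9mCON replicate 3, 1 was higher.

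Differences between the ages varied with transcript length. When the 13543 genes were split into 10 groups by length, the median log2 fold change in CON fell in every step, from 0.19 in the shortest (up to 1026 nt) to -0.18 in the longest (from 4708 nt). Across genes, which are not independent replicates, Spearman's rho between length and log2 fold change was -0.36. In CON+RM and TSCmKO it was -0.27 and -0.26. Called genes had the same tilt: the 92 higher genes had a median length of 1682 nt and the 46 lower genes one of 3376 nt, and 1 of the former and 15 of the latter exceeded 5000 nt.

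Insert sizes were 193, 225, 180, 204 and 236 nt in 3mCON replicates 1 to 5 and 280, 266, 289, 223 and 273 nt in 9mCON (means 208 ± 22.9 and 266 ± 25.6 nt, SD, n = 5; two-sided exact permutation p = 0.0238). A length index was computed for each library as the median deviation, in log2 units, of the group of shortest genes minus that of the group of longest genes. It was -0.24, -0.30, -0.10, -0.05 and -0.08 in 3mCON and 0.19, 0.89, 0.00, 0.04 and -0.37 in 9mCON. 9mCON replicate 2 had the highest and replicate 5 the lowest index of the 10, at insert sizes of 266 and 273 nt, so that libraries of like insert size differed most. The mean index did not differ past the test (difference 0.30, two-sided exact permutation p = 0.167), and without replicate 5 it did (0.43, exact permutation p = 0.00794, the smallest that 5 against 4 allow).

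9mCON replicate 4, with an insert size of 223 nt, was the only older library within the 3-month range of insert sizes. It lay above all 5 3mCON libraries for 88 of the 92 higher genes and below them all for 42 of the 46 lower genes. For the other 4 9mCON libraries these counts were 72 to 91 and 32 to 43, lowest in replicate 5. The calls used these same libraries, so the counts are a description. With insert size as a term, all 138 genes kept their direction and 23 kept the call, with 26 genes called in all. With each library's trend on length removed, all 138 kept their direction and 99 the call. The share of length and of library preparation in the age differences cannot be told apart from age itself.

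**Figure D4:**
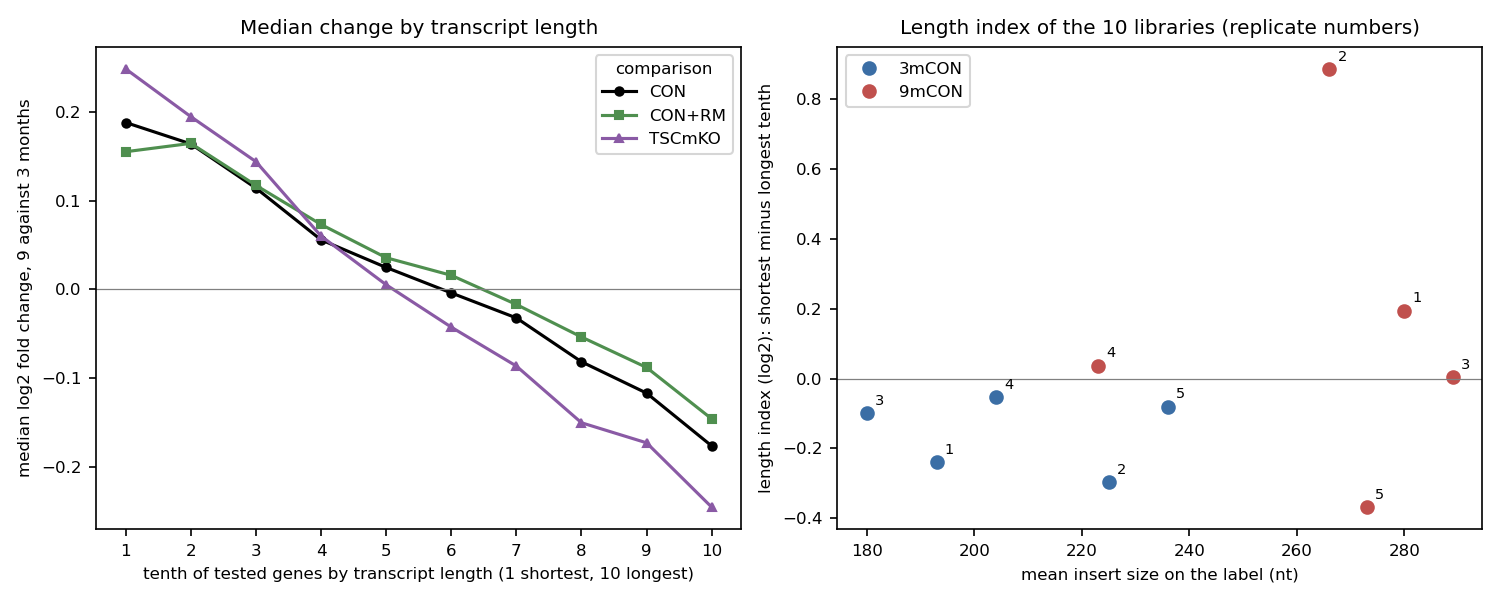
Left, median log2 fold change of 9 against 3 months in each of 10 groups of genes by transcript length for CON, CON+RM and TSCmKO, which run from 0.16 to 0.25 in the shortest group down to -0.15 to -0.25 in the longest. Right, the length index (log2) of the 10 control libraries against mean insert size (nt), labelled by replicate number, with 9mCON replicate 2 at 0.89 and replicate 5 at -0.37.

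Most of the called genes had the same direction in the other groups of mice. Of the 138, 129 (93.5%) had the same direction in 9mCON+RM against 3mCON+RM, against 71.9% of all genes, and 92 passed there in that direction. Ccndbp1 alone passed in the opposite one. That is 66.7% of the CON list and 4.65% of the 1980 genes called in CON+RM, where 14.6% of all genes passed (6.04% higher, 8.58% lower). In TSCmKO, where 37.4% of all genes passed, 124 (89.9%) had the same direction, against 69.2% of all genes, and 100 passed, or 72.5% of the CON list and 1.97% of the 5064 genes called there. Dkk3, Kcnab1, Myoz2 and Srgap3 passed there in the opposite direction. These comparisons share the age difference in insert size. Of the 138, 5 differed between vehicle and rapamycin (0.938% of all genes did) and 15 between CON and TSCmKO (4.94% of all genes, 1.93% with the more positive age step in CON) by the interaction tests. The 5 were Nr4a2, 1810024B03Rik, Sord, Bloc1s6 and Ccndbp1.

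Dkk3 departed most clearly by genotype. In CON+RM it was at 126, 235, 101, 102 and 138 CPM at 3 months and 408, 311, 384, 468 and 379.5 CPM at 9 months (log2 fold change 1.47 ± 0.26, adjusted p = 0.000202). In TSCmKO it was at 11.4, 12.1, 8.69, 3.55 and 12.2 and 3.75, 3.71, 5.14, 3.06 and 4.94 CPM (log2 fold change -1.20 ± 0.29, adjusted p = 0.00171), below every CON library of either age and lower, not higher, in the older muscles (interaction adjusted p = 5.6e-06). Ostn rose in CON+RM (log2 fold change 2.35 ± 0.40, adjusted p = 0.000126), and its interactions did not pass (adjusted p = 0.893 with treatment and 0.437 with genotype). Tph1 was at 7.73, 14.8, 5.51, 4.3 and 6.34 and 7.97, 5.71, 7.74, 9.71 and 9.85 CPM in CON+RM (log2 fold change 0.09 ± 0.30, adjusted p = 0.889), with an interaction adjusted p of 0.075, and at 2.08 CPM or less in every TSCmKO library. It rose with age there as well (0.593, 0.392, 0.72, 0.448 and 0.612 and 2.08, 0.765, 1.73, 1.04 and 1.18 CPM; log2 fold change 1.29 ± 0.41, adjusted p = 0.0116; genotype interaction adjusted p = 0.814).

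Myoz2 went up with age in TSCmKO, where it was at 87.2, 54.9, 92, 157 and 78.9 CPM at 3 months and 144, 165, 215, 220.5 and 161 CPM at 9 months (log2 fold change 0.95 ± 0.22, adjusted p = 0.00102; interaction adjusted p = 0.000371). Pcdh17 was at 4.03 to 7.68 and 3.12 to 6.55 CPM in TSCmKO (log2 fold change -0.34 ± 0.22, adjusted p = 0.214; interaction adjusted p = 0.0179) and had a log2 fold change of -0.33 in CON+RM (interaction adjusted p = 0.0529). Katnal2, Fam174b, 1700001O22Rik and Pla2g7 also differed by genotype (interaction adjusted p = 0.0169, 0.00513, 0.0214 and 0.0121), with log2 fold changes of -0.06, -0.43, -0.29 and -0.20 in TSCmKO. Jsrp1, Cox5b, Actr3b, Galnt7 and Chodl did not differ past the test by either interaction.

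**Figure D5:**
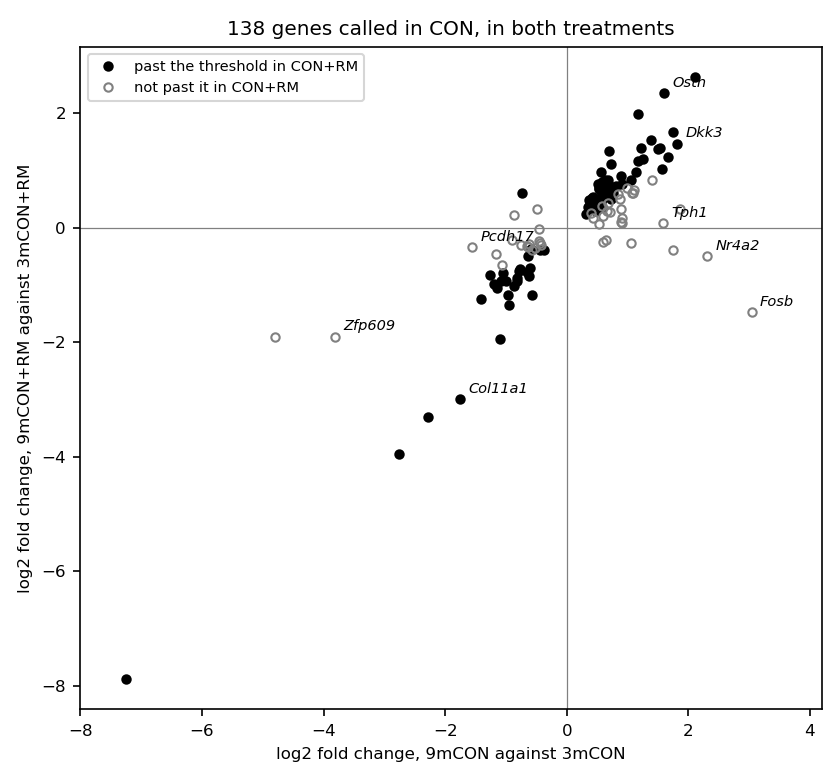
Log2 fold change of 9 against 3 months under vehicle (horizontal) and under rapamycin (vertical) for the 138 genes called under vehicle, filled where the gene also passed under rapamycin. These comparisons share no library, and 129 of the 138 points have the same sign on both axes, with Fosb and Nr4a2 among the exceptions.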

How the data were processed

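Messenger RNA of the EDL was sequenced from polyA-selected, strand-specific libraries, 1 per mouse. The authors trimmed reads with cutadapt 1.9.1, pseudoaligned them with kallisto 0.43.1 to transcripts of GRCm38, divided a read equally among all transcripts it matched, and deposited the resulting estimated counts per gene, already rounded, and TPM values per gene. The order and settings of these tools follow the submitters' notes and the study's methods as far as they state them.

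Here the expected counts as deposited were scaled with TMM and tested with edgeR 4.0.16 (R 4.3.3), using the robust quasi-likelihood fit of all 40 libraries in 8 groups. Genes with at least 1 CPM in 5 or more libraries were kept, 13543 of 22844, and p-values were adjusted by Benjamini and Hochberg over all of them, with a threshold of 0.05. The deposited TPM served for myosin shares and for transcript length, implied by counts and TPM. Insert size and shares were compared with two-sided exact permutation tests over libraries. DESeq2 1.42.0, other scalings and filters, insert size as a covariate, a replicate block, removal of the length trend and omission of each library were alternatives, of which the length trend, the joint omission of 9mCON replicates 2 and 5, and the counts of lists and interactions without single libraries were added after seeing the data. The edgeR fit and the permutation test were tested on simulated data.

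Named were, in each direction, the 15 called genes with the largest change whose mean reached 2 CPM and whose ages did not overlap, every called member of a list with up to 5 calls, and the 2 highest members of a list with none. The 10 libraries were taken by their labels alone, but this comparison and the 42 gene lists were chosen with earlier results of these data known. Depth was 10988960 to 33945646 counts per control library. A count of 3 was taken as the detection floor, which covers counting error only. Replicate numbers did not pair the mice. Shared sequence was counted in 31-base words of the transcripts. Coordinates are on GRCm38. Not every gene that the naming rule takes is reported here, and those left out are among the highest members of lists with no call.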

Additional observations from a re-analysis of the deposited data

Results flagged for a closer look

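Dixon's criterion at 95% was applied to both ages of the named genes, 39 called and 58 not. By chance it marks about 1 group in 20, so that several marks would arise by chance alone. Single libraries stood apart from the other 4 of their group in 22 of the named genes. In 3mCON replicate 3 these were, in CPM, Dkk3 (53.2), Actr3b (6.28), Ostn (21.3), Myoz2 (158), Atp2a1 (27490), Car3 (2619), Scd1 (583), Hsp90ab1 (1200) and Gstm1 (198). Katnal2 was high in 3mCON replicate 4 (7.80 CPM) and Atf4 stood apart in 3mCON replicate 2 (143.0 CPM).

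At 9 months, replicate 2 stood apart in Fosb (34.3 CPM), Nr4a2 (49.6), Cdkn1a (59.5), Pcna (44.1), Gnas (2044) and Ndufv2 (1465). Replicate 1 stood apart in Hba-a2 (2081 CPM), Hba-a1 (1834) and Phlda3 (108), replicate 4 in Gm8624 (8.08 CPM) and replicate 5 in Gsn (732 CPM).

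The age difference was not the same in CON and TSCmKO by the interaction test for 12 named genes. The difference of the log2 fold changes, CON minus TSCmKO, was 3.01 for Dkk3, 2.04 for 1700001O22Rik, 1.93 for Fam174b, 1.28 for Pla2g7, 1.11 for Katnal2, 0.70 for Atp2a1, 2.31 for Nr4a2, 2.01 for Tpx2 and 1.51 for Amd1. It was -1.22 for Pcdh17, -1.81 for Myoz2 and -0.77 for Prkar1a. Amd1 shares 82.8% of its 31-base words with other genes. Between vehicle and rapamycin in CON, the difference, vehicle minus rapamycin, was 1.52 for Dcn, 1.89 for Gsn and 2.80 for Nr4a2. Over the 20 fits without 1 library the adjusted p of edgeR ran from 0.0146 to 0.128 for Dcn, 0.0112 to 0.131 for Gsn and 0.0181 to 0.137 for Nr4a2. It was highest without 9mCON replicate 5 for Dcn (1.43) and Gsn (1.55) and without 9mCON replicate 2 for Nr4a2 (1.36).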

How the results depend on the processing

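The count of 138 genes between the ages in CON moved with the fit: 83 without the filter on low counts, 26 with insert size as a term, 30 with only the groups compared, 375 with DESeq2, and 30 to 942 on leaving out 1 library. It was lowest without 9mCON replicate 2 (30) and highest without 9mCON replicate 5 (942, of which 517 higher), and 131 without both. Upper-quartile scaling gave 170 and removal of the length trend 134. In CON+RM the 1980 calls ranged from 1337 to 2261 over omissions of 1 library. The 127 calls of the age by treatment test became 77 without the filter, 48 with only the groups compared and 255 with DESeq2, and 37 to 270 over omissions. For age in TSCmKO the 5064 calls became 1701 with insert size and 3324 with only the groups compared (omissions 4122 to 5228), and the 669 of the age by genotype test became 312 with only the groups compared (omissions 461 to 977). The causes were not tested.

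Same-numbered libraries did not deviate together (correlations -0.305 to 0.183), and a replicate block gave 142 calls for age in CON, 1989 for age in CON+RM, 137 by treatment, 5011 for age in TSCmKO and 640 by genotype. Over omissions the insert size difference was 51.7 to 69.4 nt, the myosin share differences were 1.79 to 3.76 (Myh4), -2.98 to -1.29 (Myh1), -0.689 to -0.345 (Myh2) and -0.113 to -0.0386 (Myh7) percentage points, and the length index difference 0.120 to 0.434. Of the 39 named genes that passed, 10 kept the call with insert size, 12 with only the groups compared and 12 without 9mCON replicate 2, and none reversed direction under any alternative run. Depth limits calls for genes of a few CPM.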
